A study of Mus musculus with 4 samples.

Results

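The canonical histone genes of the mouse lie in 4 clusters, named Hist1 to Hist4, and were taken here as every gene symbol in the deposited tables that starts with Hist1h, Hist2h, Hist3h or Hist4h. This gave 58 of the 19564 symbols. By class they were 6 H1, 13 H2A, 17 H2B, 11 H3 and 11 H4 genes. By cluster, 47 lay in Hist1 on chromosome 13, 7 in Hist2 on chromosome 3, 3 in Hist3 on chromosome 11 and 1 in Hist4 on chromosome 6. All 58 symbols belong to a histone class by name, but Hist3h2bb is annotated as a pseudogene in GENCODE. The tables hold RPKM, the reads of a gene scaled to a counted length and to the size of the library.

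The RNA came from fetal livers of mouse embryos at E14.5, whose cells were stained for TER119, an antigen of maturing red cells, and for CD71, the transferrin receptor, and sorted without culture. R2 holds proerythroblasts and early basophilic erythroblasts, R3 early and late basophilic erythroblasts, R4 mostly polychromatophilic and orthochromatophilic erythroblasts, and R5 late orthochromatophilic erythroblasts and reticulocytes. Each population is a mixture of these stages, no strain or genotype is given in the labels, and each population gave 1 library. No difference between libraries therefore has a replicate check, no p-value is given, and ratios describe these 4 libraries.

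Canonical histones package newly copied DNA. Core histones H2A, H2B, H3 and H4 form the nucleosome, and the linker histone H1 binds the DNA between nucleosomes. Their genes are transcribed mainly in S phase, most of them have no introns, and their messages normally end just after a conserved stem-loop that SLBP binds, in place of a poly(A) tail. During terminal erythropoiesis the nucleus condenses, the cell leaves the cell cycle and the nucleus is expelled. All 4 libraries were made from RNA enriched for poly(A) tails, so a histone message without such a tail is selected against, and the share of each gene's messages that entered the libraries was not tested.

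The stem-loop was searched in the GENCODE transcripts of build GRCm38, since it marks where a canonical histone message ends. The motif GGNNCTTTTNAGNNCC, 16 bases on the transcript strand with N for any base, was found after the stop codon in 36 of the 58 genes. Among the 40 genes whose annotated transcript goes on for more than 50 bases after the stop codon it was found in 36, which is 90.0%. Over all annotated gene symbols it was found in 89 of 55341, 0.161%. The 36 sites had 6 different sequences, and each is shown here in 1 gene, with the motif in capitals and 5 bases on either side.
Hist1h1c: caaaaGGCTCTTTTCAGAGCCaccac
Hist1h3c: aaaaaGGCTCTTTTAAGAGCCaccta
Hist2h2ac: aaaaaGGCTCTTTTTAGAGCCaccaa
Hist1h4d: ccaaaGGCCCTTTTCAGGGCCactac
Hist1h4i: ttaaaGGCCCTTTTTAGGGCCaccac
Hist1h4b: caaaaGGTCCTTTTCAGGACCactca
The form of Hist1h1c was the most frequent, in 20 genes of the H1, H2A, H2B and H3 classes. The form of Hist1h3c was in 6 genes of H1, H2B and H3, and that of Hist2h2ac in this gene alone among the members. The 9 H4 genes with a site had other letters in the stem. The form of Hist1h4d was in 5 of them, that of Hist1h4i also in Hist2h4, and that of Hist1h4b also in Hist1h4j.

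The annotated transcripts fell into 4 kinds by what follows the site. In 21 genes the transcript runs on for more than 100 bases past the stem-loop, by 151 to 4884 bases, and in 15 it ends 11 to 74 bases after it. In 17 genes the model has no site and stops at most 50 bases after the stop codon. The remaining 5 had a longer end without the motif, or, for the pseudogene, no stop codon in the annotation. They were Hist1h2bc, Hist1h3g, Hist1h4a, Hist2h2be and Hist3h2bb. The 21 genes whose transcript runs on held 64.4% of the reads of all 58 genes in R5 and 60.7% in R2.

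The number of reads behind each value was worked out from the values themselves, because few reads make a large RPKM when the length that was counted is short. The value of 1 read over 1 base was 43.6 RPKM (R2), 39.0 (R3), 36.5 (R4) and 48.3 (R5), which implies about 23000000, 25600000, 27400000 and 20700000 reads. For each gene the shortest length was taken at which its values in all 4 libraries come to whole reads. That length was determined for 47 genes, and for the other 11, among them all 6 H1 genes, several lengths were possible. The read numbers given here are the fewest that the values allow, and true numbers may be multiples of them. Intervals cover counting error only, they are widest for the fewest reads, and PCR reads are not independent molecules.

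The lengths were short. Over the 47 determined genes the median was 114 bases and the range 9 to 572, and in 41 of them it was under 50% of the annotated exonic length, a share that the method partly fixes since long lengths cannot be determined. Hist1h3b had 9 bases and 1, 1, 2 and 1 reads in R2, R3, R4 and R5. Hist1h2ai had 16 bases, and its 33.2 RPKM in R5 stood for 11 reads. In 29 of the 58 genes no library reached 30 reads, and in 9 none reached 10. How the authors counted reads that match several of these near-identical genes is not given in the sources used here, so the level of each gene within a class is uncertain. No 2 members had the same values in all 4 libraries.

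**Figure D1:**
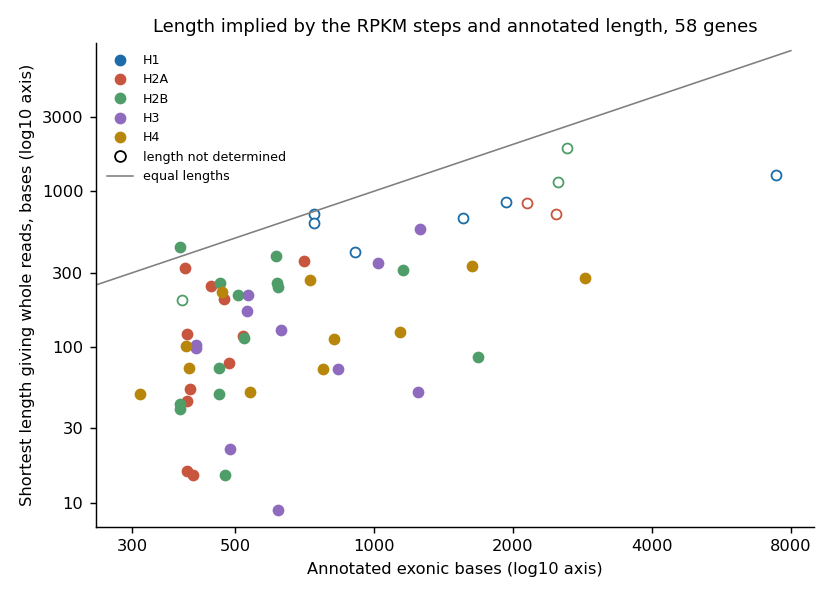
Annotated exonic length (horizontal axis, bases, log10) and the shortest length at which the 4 RPKM values come to whole reads (vertical axis, bases, log10) for the 58 clustered histone genes, coloured by class, with open circles for the 11 genes whose length was not determined. Nearly all points lie under the line of equal lengths, and the lowest, Hist1h3b, is at 9 bases.

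A large share of each library moved with the population. Globin genes held 5.52% (R2), 59.4% (R3), 80.4% (R4) and 81.9% (R5) of the sum over all genes. For the 9942 genes with at least 1 RPKM in a library, the median log2 ratio between R5 and R2 was -1.65. Ratios are of RPKM + 1, which understates the change of low genes, and are as deposited unless a scaling is named. In bulk samples fewer cells of a type and less RNA per cell cannot be told apart, and RPKM give each gene's share of a library and not molecules per cell.

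Against that general decrease the clustered histone genes stood higher in R5 than in R2. Of the 55 members with at least 1 RPKM in a library, 29 were at least 2-fold higher in R5, a share of 52.7%, where 2.74% of all genes were. No member was 2-fold lower, where 76.9% of all genes were, and 26 lay between these limits. The median log2 ratio was 1.02 for the members and -1.65 for all genes. R5 was the library with the highest value for 48 of the 55 members, and R2 for 2. Hist1h2aa, Hist1h2ac, Hist1h2be and Hist1h3f reached 1 RPKM in R5 alone, so the filter fixed R5 as their highest library. Hist1h3f is also among the 29. Among all genes 1.82% were highest in R5 and 86.2% in R2.

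**Figure D2:**
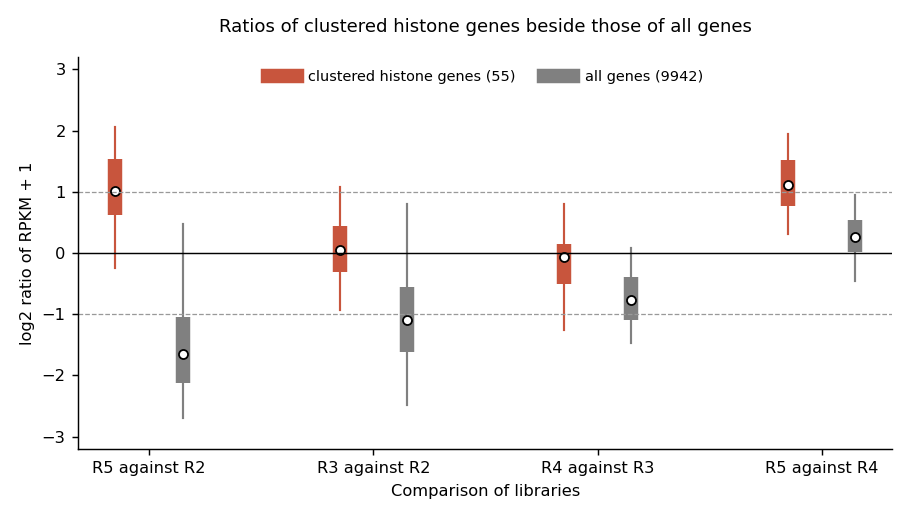
Log2 ratio of RPKM + 1 (vertical axis) in 4 comparisons of libraries, for the 55 clustered histone genes and for all 9942 genes past the filter, with the median as a circle, the middle 50% as a bar and the 5th to 95th percentile as a line. The members' median is 1.02 in R5 against R2 and 1.11 in R5 against R4, and close to 0 in the steps between.

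The size of this difference turned on the scaling, and its direction stayed under the scalings tried. Neither of them brings the libraries to a common sum with globins kept. As a share of the sum over all genes, the members were nearly level, at 0.104% in R2 and 0.111% in R5. By that share H2A was lower in R5, at 0.0206% against 0.0288% in R2. When each library was divided by the median of its gene ratios, 53 of the 55 members were higher in R5 by 2-fold or more over R2, where 9.42% of all genes were, none was lower, where 13.7% were, and the members' median was 2.32 with that of all genes at -0.42. With the globin genes removed and the rest brought to a common sum, the count was 51, where 7.35% of all genes were, with none lower, where 29.8% were, and the medians were 2.07 and -0.68. With R3 in place of R2, 24 members were at least 2-fold higher in R5, where 0.664% of all genes were, none was lower, where 13.1% were, and the members' median was 0.92.

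Counting error alone left most of these ratios above 1. Of the 29 members 2-fold higher in R5 than in R2, 25 had a 95% counting interval of the RPKM ratio above 1, and in 4 the interval reached 1. Over all 55 members the interval lay above 1 in 32, held 1 in 22 and lay below 1 in 1. Among the 13 members with at least 100 reads in a library, 12 had an interval above 1, and their median ratio was 3.17.

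**Figure D3:**
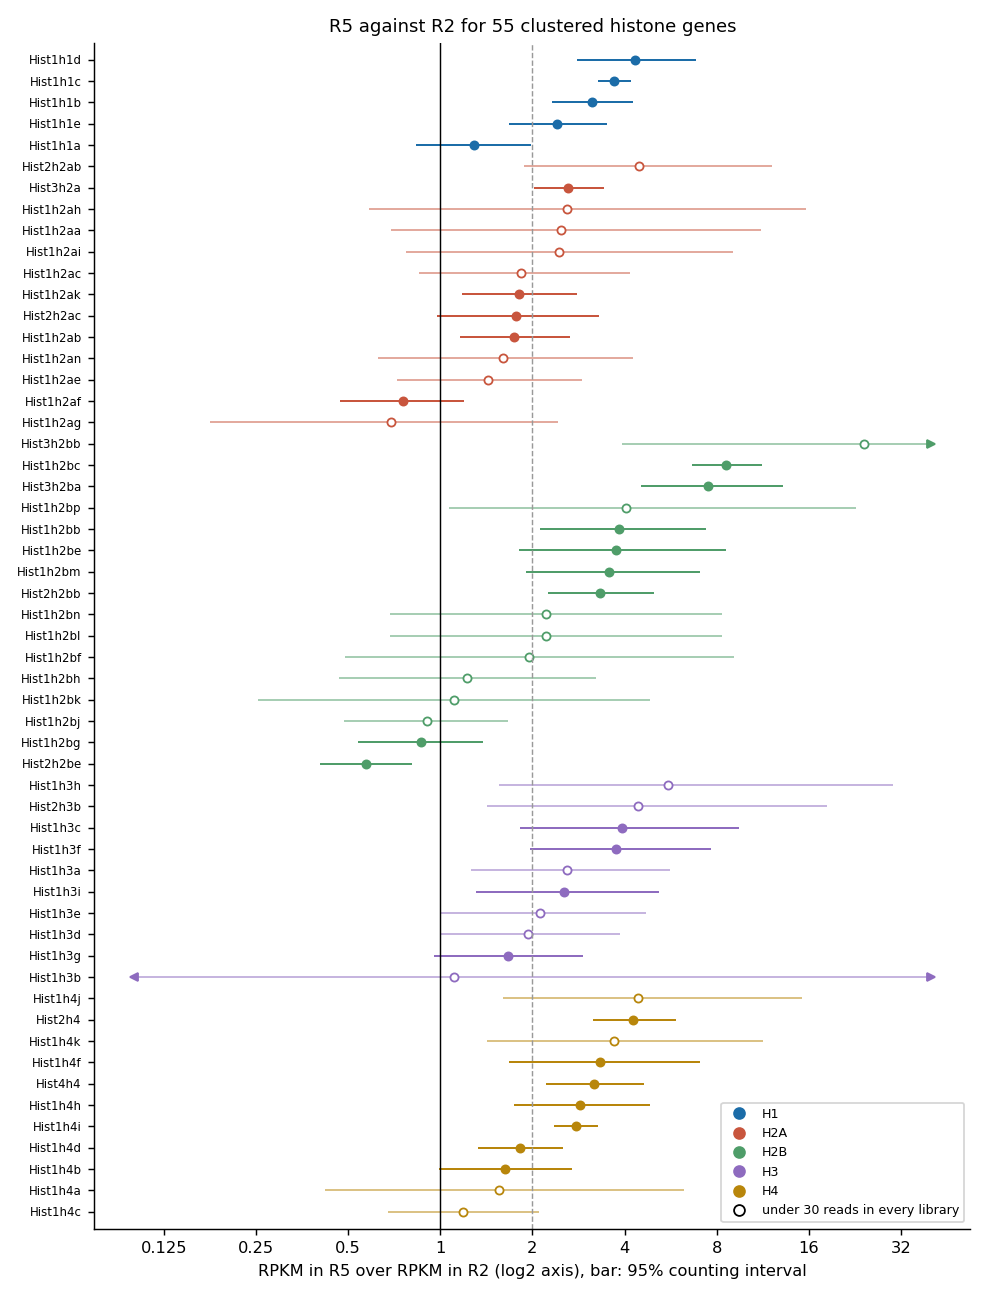
RPKM in R5 over RPKM in R2 (horizontal axis, log2) for the 55 members with at least 1 RPKM in a library, grouped by class, with 95% counting intervals as bars and open circles for genes under 30 reads in every library; arrows mark intervals that leave the axis. Hist2h2be is the sole gene whose interval lies below 1.

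Summed over all 58 genes, the level was 414 RPKM (R2), 505 (R3), 398 (R4) and 972 (R5). As a share of the sum over all genes this was 0.104%, 0.0932%, 0.0566% and 0.111%. As a share of the genes other than globins it was 0.110%, 0.229%, 0.288% and 0.614%, higher in each population than in the one before. A sum of RPKM is led by genes with short counted lengths, so reads were also summed. They came to 1864, 3027, 2937 and 4861, and the ratio of R5 to R2 corrected for depth was 2.89, with a counting interval of 2.74 to 3.05. Without the 3 genes of most reads, Hist1h1c, Hist1h2bc and Hist1h4i, it was 2.30, with 2.14 to 2.46.

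**Figure D4:**
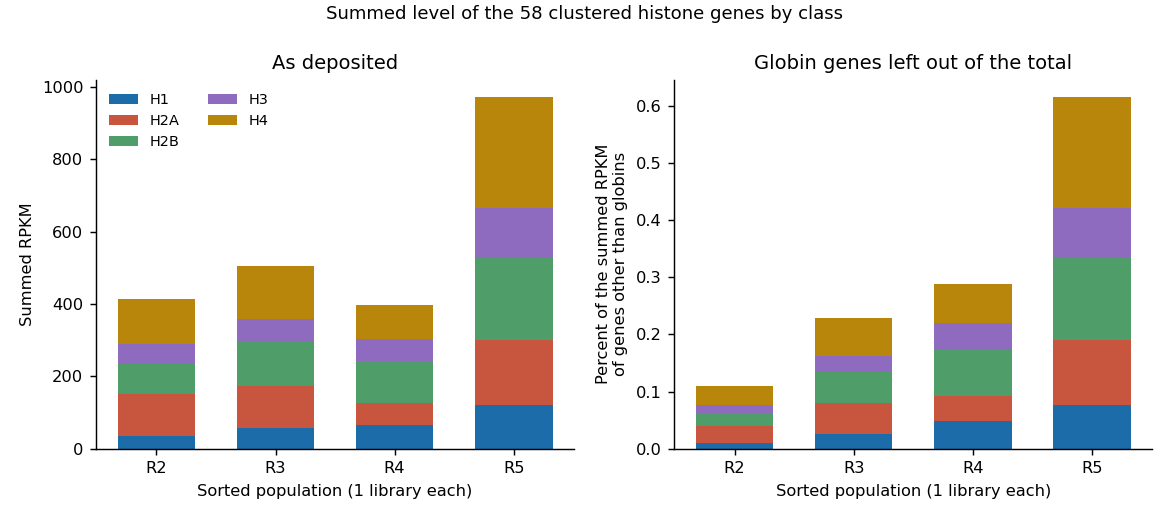
Summed RPKM of the 58 clustered histone genes in each population (left, as deposited) and as a percent of the summed RPKM of all genes other than globins (right), stacked by class. As deposited R5 stands at 972 RPKM and the other libraries at 398 to 505, and with globins left out the share is higher at each step.

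The linker histone genes held the largest share of the reads, 36.1% of the members' reads in R5 and 30.9% in R2, counted as the fewest that the values allow. No H1 length was determined, so the shares of classes by reads are uncertain. By summed RPKM, H1 was the lowest class in these 2 libraries, with 122 of 972 RPKM in R5 and 36.0 of 414 in R2. Most of the H1 reads were of Hist1h1c, which encodes H1.2, with 1314 of 1757 reads in R5 and 393 of 576 in R2. Hist1h1c had 25.5 RPKM (R2), 48.2 (R3), 59.1 (R4) and 94.4 (R5), or 393, 830, 1088 and 1314 reads. It was higher at every step, and its ratio of R5 to R2 was 3.70 (95% counting interval 3.31 to 4.16). Hist1h1b, which encodes H1.5, had 4.47 RPKM (R2), 4.88 (R3), 3.16 (R4) and 14 (R5). Its level was lowest in R4 and highest in R5, with a ratio of R5 to R4 of 4.43 (95% counting interval 3.26 to 6.13).

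The other H1 genes were lower. Hist1h1a, Hist1h1d and Hist1h1e lay between 3.46 and 5.81 RPKM in R5, against 0.96 to 2.69 in R2. Hist1h1d, which encodes H1.3, had the highest ratio of R5 to R2 among them, 4.31 (95% counting interval 2.83 to 6.79). Hist1h1a, which encodes H1.1, had a ratio of 1.29 (95% counting interval 0.841 to 1.97), an interval that holds 1. Hist1h1t, the linker histone of the testis, had 1 read in R3 (0.09 RPKM) and was listed at 0 in the other libraries. Of the 5 H1 genes past the filter, 3 were higher in R5 by 2-fold or more over R2, where 2.74% of all genes were. The median log2 ratio of the 5 was 1.39.

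The promoter of Hist1h1c is shown because this gene had the most reads of all members. RefSeq gives it on build GRCm38.p6 as chr13:23738557-23738856 on the plus strand, 250 bases before to 50 bases after the start, with motifs found in capitals.
Hist1h1c promoter: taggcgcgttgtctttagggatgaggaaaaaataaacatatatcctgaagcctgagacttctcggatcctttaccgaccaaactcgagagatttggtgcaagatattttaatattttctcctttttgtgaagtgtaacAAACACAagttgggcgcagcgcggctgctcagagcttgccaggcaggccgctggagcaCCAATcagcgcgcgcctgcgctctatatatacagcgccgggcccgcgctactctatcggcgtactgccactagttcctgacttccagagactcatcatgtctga
The capitals mark CCAAT, which begins at position -54 from the start, and AAACACA, the H1 box, which begins at -112. On either strand AAACACA was found in 5 of the 6 H1 promoters, in 2 of 13 for H2A and 2 of 14 for H2B, in none for H3 and H4, and in 7.18% of all 32851 promoters of this length. CCAAT on either strand was found in every promoter of the 6 H1, 13 H2A, 14 H2B and 9 H3 genes in the table, in 3 of 10 H4 promoters and in 37.4% of all promoters. The table held promoters for 52 of the 58 members. A match says only that these letters are there. Windows of divergent neighbours can overlap, so the same match can be counted for both genes, as it can for AAACACA in Hist1h2aa and Hist1h2ba.

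Among the 13 H2A genes the median was 7.45 RPKM (R2), 6.76 (R3), 2.43 (R4) and 13.2 (R5). Of these, 4 were higher in R5 by 2-fold or more over R2, where 2.74% of all genes were, and the class median log2 ratio was 0.74. Hist1h2af was the H2A gene with the highest level in a library, and it went another way than most. Hist1h2af had 40.3 RPKM (R2), 48.4 (R3), 16.2 (R4) and 30.4 (R5), or 50, 67, 24 and 34 reads over 54 bases. It was highest in R3, and the ratio of R5 to R2 was 0.753 (95% counting interval 0.472 to 1.19).

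Other H2A genes at 10 RPKM or more were highest in R5. Hist1h2ak had 13.6 RPKM (R2), 12.5 (R3), 7.77 (R4) and 24.5 (R5), with a ratio of R5 to R2 of 1.81 (95% counting interval 1.19 to 2.78). Hist1h2ab had 9.06 RPKM (R2), 6.76 (R3), 4.87 (R4) and 15.8 (R5), and Hist2h2ac had 7.45 RPKM (R2), 8 (R3), 6.23 (R4) and 13.2 (R5). Both had their lowest value in R4. Hist3h2a, with the most reads of the class, had 4.62 RPKM (R2), 7.8 (R3), 5.95 (R4) and 12.1 (R5). Its 211 reads in R5 against 89 in R2 gave a ratio of 2.62 (95% counting interval 2.04 to 3.40).

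The levels of 3 H2A genes at 10 RPKM or more rested on few reads. Hist1h2ai had 13.6 RPKM (R2), 14.6 (R3), 2.28 (R4) and 33.2 (R5), which were 5, 6, 1 and 11 reads. Hist1h2ah had 8.71 RPKM (R2), 2.6 (R3), 2.43 (R4) and 22.5 (R5), which were 3, 1, 1 and 7 reads over 15 bases. Hist1h2an had 8.71 RPKM (R2), 7.8 (R3), 8.92 (R4) and 13.9 (R5), which were 9, 9, 11 and 13 reads over 45 bases. The counting intervals of the R5 to R2 ratio held 1 in all 3 of these.

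Below 10 RPKM were Hist2h2ab, Hist1h2ag, Hist1h2ae, Hist1h2ac and Hist1h2aa, at 1.34 to 5.47 RPKM in R5 against 0.54 to 4.41 in R2, and none of them reached 30 reads in a library. Hist2h2ab had the highest ratio of these, 4.45 (95% counting interval 1.89 to 12.0), and had 1.23 RPKM (R2), 1.26 (R3), 1.77 (R4) and 5.47 (R5). Hist1h2aa, a germline H2A gene, had 0.54 RPKM (R2), 0.24 (R3), 0.11 (R4) and 1.34 (R5), which were 4, 2, 1 and 9 reads.

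The H2B class held the member with the largest change among those with many reads. Hist1h2bc had 9.91 RPKM (R2), 31.5 (R3), 44.1 (R4) and 85.2 (R5), or 71, 252, 377 and 551 reads. It was higher at every step, and its ratio of R5 to R2 was 8.60 (95% counting interval 6.70 to 11.2). The GENCODE transcript of Hist1h2bc has 2 exons and 742 bases after the stop codon, without the stem-loop motif. Its neighbour on the chromosome, Hist1h2ac, had 0.74 RPKM (R2), 0.6 (R3), 0.56 (R4) and 1.36 (R5), far below Hist1h2bc in every library.

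Hist3h2ba, an H2B gene of the Hist3 cluster, had 2.04 RPKM (R2), 9.45 (R3), 7.5 (R4) and 15.3 (R5), with a ratio of R5 to R2 of 7.51 (95% counting interval 4.56 to 13.1). Hist2h2bb had 3.65 RPKM (R2), 3.98 (R3), 4.3 (R4) and 12.2 (R5) and Hist1h2bb had 3.01 RPKM (R2), 2.34 (R3), 4.03 (R4) and 11.6 (R5). Their ratios of R5 to R2 were 3.33 (95% counting interval 2.27 to 4.96) and 3.84 (95% counting interval 2.13 to 7.34). Hist1h2bm had 5.35 RPKM (R2), 9.24 (R3), 10.9 (R4) and 19.1 (R5), higher at every step, with 45 reads in R5 against 14 in R2.

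Other H2B genes at 10 RPKM or more differed little between R5 and R2, or differed on few reads. Hist1h2bj had 16.1 RPKM (R2), 13.4 (R3), 6.99 (R4) and 14.5 (R5), and its highest value was in R2. Hist1h2bk had 14.5 RPKM (R2), 13.0 (R3), 7.29 (R4) and 16.1 (R5), but with 15 bases counted these were 5, 5, 3 and 5 reads. Hist1h2bl had 5.44 RPKM (R2), 7.8 (R3), 3.65 (R4) and 12.1 (R5), and Hist1h2bn had 5.06 RPKM (R2), 10.9 (R3), 7.63 (R4) and 11.2 (R5). Each of these 2 genes had 10 reads in R5 against 5 in R2, and the counting intervals of the ratio hold 1.

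Below 10 RPKM, Hist1h2bg, Hist1h2bh, Hist1h2bf, Hist3h2bb, Hist2h2be, Hist1h2bp and Hist1h2be lay at 1.43 to 6.76 RPKM in R5 against 0.17 to 7.74 in R2. Hist3h2bb had the highest ratio of R5 to R2, 24.3 (95% counting interval 3.94 to 1006), with 0.17 RPKM (R2), 1.21 (R3), 1.14 (R4) and 4.13 (R5), which were 1, 8, 8 and 22 reads. Hist2h2be was the sole member with a counting interval of R5 to R2 below 1. It had 2.5 RPKM (R2), 3.73 (R3), 1.07 (R4) and 1.43 (R5), and its ratio was 0.572 (95% counting interval 0.408 to 0.800). Hist1h2ba, an H2B gene of the testis, was listed at 0 in R2 and R3 and had 0.18 RPKM in R4 and 0.48 in R5, which were 1 and 2 reads. Of the 16 H2B genes past the filter, 9 were higher in R5 by 2-fold or more over R2, where 2.74% of all genes were. The median log2 ratio of the 16 was 1.02.

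The promoter of Hist2h2bb is shown as one of the 14 member promoters with the octamer ATTTGCAT, the recognition sequence of the POU factor OCT1. RefSeq gives it on GRCm38.p6 as chr3:96269450-96269749 on the plus strand.
Hist2h2bb promoter: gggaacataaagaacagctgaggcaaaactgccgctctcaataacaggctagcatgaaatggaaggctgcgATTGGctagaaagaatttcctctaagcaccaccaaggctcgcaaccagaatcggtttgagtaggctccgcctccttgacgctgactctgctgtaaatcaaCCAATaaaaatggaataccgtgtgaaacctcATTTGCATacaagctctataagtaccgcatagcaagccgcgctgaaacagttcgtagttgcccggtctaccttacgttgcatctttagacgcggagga
The capitals mark ATTGG, which is CCAAT on the other strand, beginning at position -179, CCAAT at -79 and ATTTGCAT at -48. On either strand the octamer was found in 7 of 13 H2A and 7 of 14 H2B promoters, in no promoter of the other classes and in 1.74% of all promoters. These are not all separate sites, since windows of divergent neighbours can overlap. Hist1h2ae and Hist1h2bg, Hist1h2ah and Hist1h2bk, and Hist1h2aa and Hist1h2ba overlap in this way and all had a match, so the same octamer can be counted for both genes. H2A and H2B genes often stand back to back, and 6 divergent neighbours among the members were such a pair with both genes past the filter, for example Hist1h2ak and Hist1h2bn. The members of a pair could differ in level. Hist1h2an had 13.9 RPKM in R5 against 8.71 in R2, while Hist1h2bp across the shared upstream region had 2.19 against 0.54.

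Among the 11 H3 genes the median was 4.84 RPKM (R2), 4.34 (R3), 3.96 (R4) and 10.3 (R5). No H3 gene had more than 44 reads in a library. Hist1h3d had 13.7 RPKM (R2), 7.65 (R3), 15.0 (R4) and 26.5 (R5), with 28 reads in R5 against 16 in R2. Hist2h3b had 7.92 RPKM (R2), 21.3 (R3), 11.6 (R4) and 35.1 (R5), which were 4, 12, 7 and 16 reads over 22 bases. Hist1h3e had 7.26 RPKM (R2), 8.13 (R3), 6.59 (R4) and 15.4 (R5).

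The remaining H3 genes at 10 RPKM or more were also highest in R5. Hist1h3i had 5.92 RPKM (R2), 2.65 (R3), 3.9 (R4) and 15.0 (R5), with a ratio of R5 to R2 of 2.53 (95% counting interval 1.31 to 5.14). Hist1h3c had 3.04 RPKM (R2), 4.54 (R3), 3.96 (R4) and 12.0 (R5), with a ratio of 3.94 (95% counting interval 1.84 to 9.38). Hist1h3g had 6.19 RPKM (R2), 7.62 (R3), 6.04 (R4) and 10.3 (R5), and the interval of its ratio, 0.964 to 2.91, holds 1. Of the 10 H3 genes past the filter, 6 were higher in R5 by 2-fold or more over R2, where 2.74% of all genes were. The median log2 ratio of the 10 was 1.15.

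Hist1h3b, Hist1h3h, Hist1h3a and Hist1h3f stayed below 10 RPKM, at 3.71 to 7.39 RPKM in R5 against 0.99 to 4.84 in R2. Hist1h3h had the highest ratio among these, 5.56 (95% counting interval 1.57 to 29.8), on 15 reads in R5 against 3 in R2. Hist1h3f had the most reads of the class in R5, 44 against 13 in R2, and its level was 0.99 RPKM (R2), 0.55 (R3), 0.57 (R4) and 3.71 (R5). Hist2h3c2 stayed under 1 RPKM in every library, with 0.25 RPKM (R2), 0.22 (R3), 0.32 (R4) and 0.7 (R5).

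The H4 genes, which encode the same protein, had the highest class median in R3, R4 and R5. It was 6.92 RPKM (R2), 7.47 (R3), 6.99 (R4) and 19.3 (R5). Of the 11, 7 were higher in R5 by 2-fold or more over R2, where 2.74% of all genes were. The median log2 ratio of the class was 1.44, and all 11 had a value in R5 above that in R2. Hist1h4i led the class. Hist1h4i had 35.3 RPKM (R2), 62.5 (R3), 29.3 (R4) and 97.8 (R5), or 218, 431, 216 and 545 reads. Its values alternated, with R3 and R5 above R2 and R4, and the ratio of R5 to R2 was 2.77 (95% counting interval 2.36 to 3.26).

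Hist1h4d had 23.9 RPKM (R2), 19.2 (R3), 10.9 (R4) and 43.6 (R5), lowest in R4, with a ratio of R5 to R4 of 4.01 (95% counting interval 2.74 to 5.98). Hist2h4, the H4 gene of the Hist2 cluster, had 7.33 RPKM (R2), 11.7 (R3), 12.2 (R4) and 31.3 (R5), and Hist4h4, the sole gene of the Hist4 cluster, had 6.92 RPKM (R2), 7.47 (R3), 7.77 (R4) and 22.0 (R5). Both were higher at every step, with ratios of R5 to R2 of 4.27 (95% counting interval 3.17 to 5.84) and 3.17 (95% counting interval 2.23 to 4.58). Hist1h4b had 17.9 RPKM (R2), 17.6 (R3), 6.99 (R4) and 29.1 (R5), with 44 reads in R5 against 30 in R2, and a ratio whose interval of 0.999 to 2.68 reaches 1.

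Further H4 genes had their highest value in R5 as well. Hist1h4k had 5.23 RPKM (R2), 5.46 (R3), 5.84 (R4) and 19.3 (R5), on 20 reads in R5 against 6 in R2. Hist1h4f had 5.18 RPKM (R2), 10.8 (R3), 7.22 (R4) and 17.2 (R5), and Hist1h4h had 4.65 RPKM (R2), 3.64 (R3), 3.57 (R4) and 13.3 (R5). These 3 genes had R5 to R2 ratios of 3.69, 3.32 and 2.86, each with an interval above 1. Hist1h4j had 3.02 RPKM (R2), 1.08 (R3), 2.53 (R4) and 13.4 (R5), on 20 reads in R5 against 5 in R2. Hist1h4c had 10.5 RPKM (R2), 4.18 (R3), 6.84 (R4) and 12.5 (R5), a small difference of R5 from R2, and its interval of 0.680 to 2.09 holds 1. Hist1h4a, the sole H4 gene under 10 RPKM, had 4.27 RPKM (R2), 3.06 (R3), 2.15 (R4) and 6.62 (R5), on 7 reads in R5 against 5 in R2.

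The promoter of Hist1h4i is shown because it had the most reads of the class, and because H4 promoters differed from the others in their motifs. RefSeq gives it on GRCm38.p6 as chr13:22041313-22041612 on the minus strand.
Hist1h4i promoter: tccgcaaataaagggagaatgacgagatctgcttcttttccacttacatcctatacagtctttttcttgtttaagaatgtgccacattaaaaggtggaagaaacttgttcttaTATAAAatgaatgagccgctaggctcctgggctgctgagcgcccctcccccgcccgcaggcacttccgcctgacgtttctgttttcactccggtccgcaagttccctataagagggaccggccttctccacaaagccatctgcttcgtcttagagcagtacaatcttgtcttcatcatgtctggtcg
The capitals mark TATAAA, which begins at position -137. On the given strand TATAAA was found in 26 of the 52 member promoters, 6 of 10 in H4, and in 8.32% of all promoters. Neither CCAAT nor the octamer was found in this window. AGATAA, a form of the site of GATA factors, was found on either strand in 13 of the 52 member promoters, 1 of the 10 in H4, and in 11.2% of all promoters. It was in none of the 3 promoters shown. Windows overlap in Hist1h2ae and Hist1h2bg, in Hist1h2ah and Hist1h2bk, and in Hist1h2ai and Hist1h2bl. All of these had AGATAA, so the same site can be counted for both genes of a pair.

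**Figure D5:**
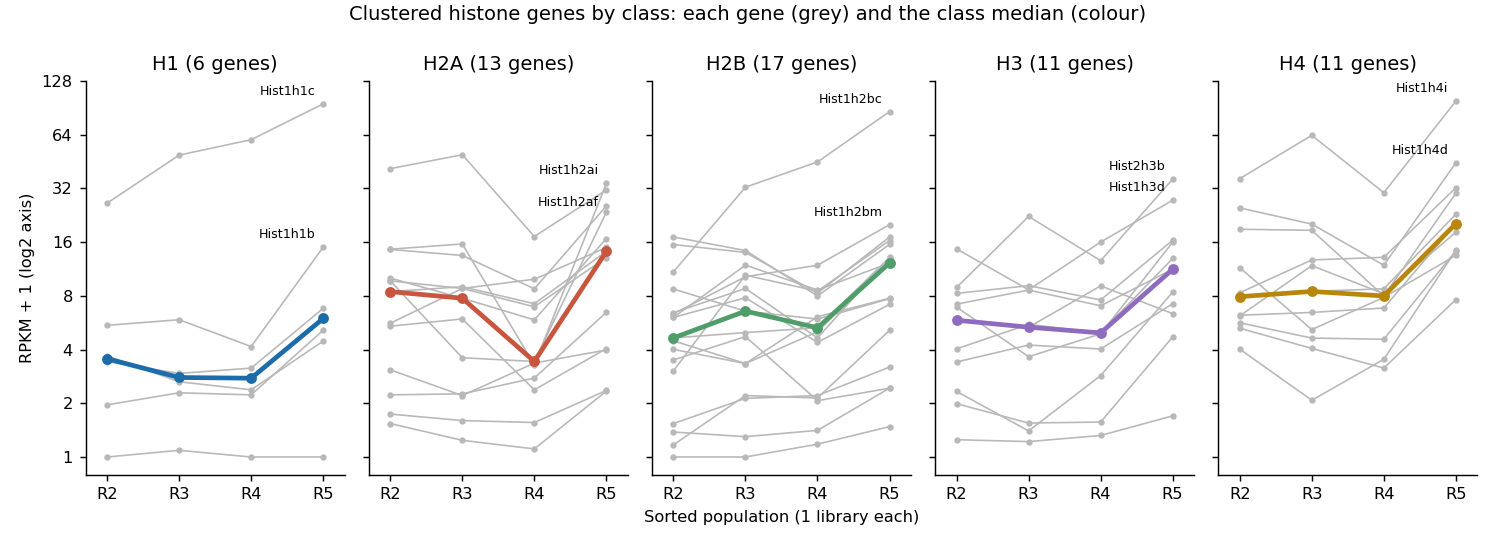
RPKM + 1 (vertical axis, log2) of each clustered histone gene in the 4 populations, 1 panel per class, with each gene in grey, the class median in colour and the 2 genes with the highest level in a library named. The class medians are highest in R5 in all 5 classes, at 4.98 RPKM in H1, 13.2 in H2A, 11.2 in H2B, 10.3 in H3 and 19.3 in H4.

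By cluster, the histone genes stood higher in R5 than in R2 in all 4. Reads summed over the cluster were higher in R5 than in R2 by 2.94-fold in Hist1, 2.20-fold in Hist2, 3.64-fold in Hist3 and 3.17-fold in Hist4, with counting intervals of 2.76 to 3.12, 1.87 to 2.58, 2.93 to 4.56 and 2.23 to 4.58. Ratios of summed RPKM were 2.21, 3.28, 4.62 and 3.17 in the same order, so the order of Hist1 and Hist2 changed with the measure. Hist2h2be, which was lower in R5, held 108 of the 234 Hist2 reads in R2. At least 2-fold higher in R5 were 21 of 45 genes in Hist1, 4 of 6 in Hist2, 3 of 3 in Hist3 and the 1 gene of Hist4. Over all genes 2.74% were. The Hist3 cluster had the highest median, 2.13 on the log2 scale. That median is the value of the pseudogene Hist3h2bb, which had 1 read in R2. The medians of Hist1, Hist2 and Hist4 were 0.99, 1.52 and 1.53. All 6 H1 genes were in Hist1, so the clusters differ in the classes they hold.

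In R3 against R2, the step at which most of the globin share appears, few histone genes passed 2-fold. In R3, 3 of 55 members were at least 2-fold higher than in R2, where 3.81% of all genes were, and 2 were at least 2-fold lower, where 55.1% were. The higher ones were Hist1h2bc, Hist3h2ba and Hist2h3b. The lower ones were Hist1h2ah, with 1 read in R3 against 3 in R2, and Hist1h4c, with 12 reads in R3 against 27 in R2. The median was 0.05 for the members and -1.09 for all genes. With median scaling 14 members were higher, where 8.38% of all genes were, and none lower, where 18% were. With globins removed 14 were higher, where 7.81% of all genes were, and none lower, where 22.8% were. Summed reads were higher in R3 than in R2 for H2B, by 1.75-fold, for H1, by 1.59-fold, and for H4, by 1.36-fold, with intervals above 1. For H1 and H4 this rested on 1 gene each. Without Hist1h1c, H1 was at 0.945 of the R2 level, with an interval of 0.768 to 1.16, and without Hist1h4i, H4 was at 1.04, with 0.881 to 1.22. H2B without Hist1h2bc was at 1.42, with 1.23 to 1.64. For H2A and H3 the intervals, 0.989 to 1.34 and 0.762 to 1.30, held 1.

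In R4 against R3 the class sums differed in direction, in part through single genes. Summed reads of H4 were at 0.641 of the R3 level, with an interval of 0.572 to 0.718, and those of H2A at 0.710, with 0.608 to 0.828. H1 was at 1.15, with 1.06 to 1.25, with Hist1h1c at 59.1 RPKM in R4 against 48.2 in R3. Without Hist1h1c the other H1 genes were at 0.843, with 0.682 to 1.04. Without Hist1h4i, H4 was at 0.873, with 0.744 to 1.03, and without Hist1h2bc, H2B was at 0.679, with 0.591 to 0.781. For H2B, at 0.924, and for H3 the intervals, 0.833 to 1.02 and 0.778 to 1.30, held 1. Of the 55 members, 6 were at least 2-fold lower, where 32.1% of all genes were, and 1, Hist1h3h, was 2-fold higher, where 0.493% were. The members' median was -0.07 as deposited, and it turned to 0.67 with median scaling and 0.35 with globins removed, so the direction of this step depends on the scaling. Median scaling gave 17 members higher, where 4.26% of all genes were, and 1 lower, where 0.382% were, and globin removal gave 9, where 1.98% were, and 1, where 2.83% were. With globins left out of the total, H4 was at 1.03 of its R3 share of the summed RPKM and H2A at 0.831.

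As deposited, the step to R5 had the largest median of the members. As a share of genes other than globins, the step from R2 to R3 was about as large. That share was 2.09-fold higher in R3 than in R2 and 2.13-fold higher in R5 than in R4. By this measure the step to R3 was the larger in H1 and H2B, and the step to R5 in H2A and H4. H3 was nearly even, at 1.93-fold to R3 and 1.97-fold to R5. Without Hist1h1c, H1 turned to 1.60-fold and 3.02-fold in the same order. H2B without Hist1h2bc kept its order, at 2.08-fold and 1.77-fold. Without Hist1h1c, Hist1h2bc and Hist1h4i, the members were at 1.81-fold to R3 and 2.28-fold to R5. In R5, 30 of 55 members were at least 2-fold higher than in R4, where 3.97% of all genes were, and none was 2-fold lower, where 0.604% were. Hist1h2aa and Hist1h3f, which passed the filter through R5 alone, are among the 30. The median was 1.11 for the members and 0.27 for all genes. With median scaling 25 were higher, where 1.75% of all genes were, and none lower, where 2.56% were, and with globins removed 27 were, where 2.98% of all genes were, and none lower, where 1.58% were. H4 had the most members past 2-fold, 10 of 11, with 6 of 13 in H2A, 5 of 16 in H2B, 6 of 10 in H3 and 3 of 5 in H1. Summed reads were 3.12-fold higher in R5 for H4, with an interval of 2.81 to 3.47, and 1.84-fold higher for H1, with 1.71 to 1.98. Without Hist1h1c, H1 was 3.37-fold higher, with 2.82 to 4.04. Counting intervals of single genes lay above 1 in 41 of the 55 and held 1 in 14.

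This step also moved with markers of other cells, whose part in the result was not tested. Over all genes 3.97% were higher in R5 by 2-fold or more over R4. Of 8 megakaryocyte markers 5 were higher in R5 by 2-fold or more over R4, with a summed level of 44.6 RPKM (R2), 45.7 (R3), 24.4 (R4) and 72.4 (R5). Of 10 macrophage markers 4 were, with sums of 101 RPKM (R2), 57.9 (R3), 24.5 (R4) and 58.1 (R5). Of 8 hepatocyte markers 4 were, with 227, 557, 190 and 405 RPKM in the same order. Of 10 granulocyte markers 3 were, with 6127, 426, 234 and 469 RPKM. All 10 granulocyte markers were at least 2-fold lower in R5 than in R2, where 76.9% of all genes were, Mpo with 146 RPKM in R5 against 1966 in R2. With median scaling all 10 were as well, where 13.7% of all genes were. With median scaling the markers higher in R5 over R4 were 5 of the megakaryocyte, 2 of the macrophage, 1 of the hepatocyte and none of the granulocyte lists. By that scaling 1.75% of all genes were. None of these 36 markers was listed at 0 in a library. Of 5 lymphoid markers Cd3e was listed at 0 in all 4, and Cd3g in R3 and R5. The 9 erythroid markers summed to 11629.5 RPKM (R2), 162777 (R3), 283385 (R4) and 356820 (R5), most of it globin.

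The genes that make and trim histone messages followed the median of all genes. Of 20 such genes past the filter none was at least 2-fold higher and all 20 were at least 2-fold lower in R5 than in R2, where 2.74% and 76.9% of all genes were, with a median of -1.67 beside -1.65 for all genes. Slbp, which binds the stem-loop, had 88.1 RPKM (R2), 113 (R3), 27.1 (R4) and 27.3 (R5) as deposited, and the order of the libraries depends on the scaling. Srrt, which links the cap-binding complex to 3′ end processing, had 118 RPKM (R2), 63.9 (R3), 31.5 (R4) and 35.5 (R5). Upf1, which takes part in the decay of histone messages, had 104 RPKM (R2), 49.3 (R3), 24.9 (R4) and 35.8 (R5). The highest log2 ratio of R5 to R2 past the filter was that of Hinfp, a transcription factor of H4 genes, at -1.04. The lowest was that of Cpsf3, the endonuclease that cuts at the 3′ end, at -2.61. With median scaling 1 of the 20 was 2-fold lower, where 13.7% of all genes were, and the median was -0.48 with that of all genes at -0.42.

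The general poly(A) machinery was also near the values of all genes. At least 2-fold lower in R5 than in R2 were 12 of 15 genes, where 76.9% of all genes were, and the median was -1.63 beside -1.65. With median scaling 2 of the 15 were, where 13.7% of all genes were, 1 was 2-fold higher, and the median was -0.37 beside -0.42. Pabpc1, the cytoplasmic poly(A)-binding protein, had 709 RPKM (R2), 551 (R3), 948 (R4) and 600 (R5), and its log2 ratio of R5 to R2, -0.24, was the highest of the list. Pabpc4 had 195 RPKM (R2), 181 (R3), 92.6 (R4) and 97.5 (R5), and Pabpn1, the nuclear poly(A)-binding protein, had 204 RPKM (R2), 76.5 (R3), 31.6 (R4) and 47.3 (R5). Cpsf1 had the lowest log2 ratio, -2.66. Nudt21, a cleavage factor that takes part in the choice of poly(A) sites, was the sole gene of the list higher in R5 by 2-fold or more over R4, with 24.2 RPKM (R2), 5.78 (R3), 0.9 (R4) and 7.15 (R5), and it was named after its values were seen.

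Of 27 S phase genes measured, 24 were at least 2-fold lower in R5 than in R2, where 76.9% of all genes were, none was 2-fold higher, and the median was -1.89 beside -1.65 for all genes. With median scaling none was 2-fold lower, where 13.7% of all genes were, 1 was 2-fold higher, and the median was -0.40, beside -0.42 for all genes. Pcna, the sliding clamp of DNA polymerases, had 600 RPKM (R2), 651 (R3), 162 (R4) and 195 (R5). Mcm2, of the replicative helicase, had 221 RPKM (R2), 185 (R3), 49.2 (R4) and 52.8 (R5). Rrm2, a subunit of ribonucleotide reductase, had 128 RPKM (R2), 291 (R3), 106 (R4) and 102 (R5). Its log2 ratio of R5 to R2, -0.32, was the highest of the list, with Dut the lowest at -2.41. In R4 against R3, where the members' median was -0.07, 26 of 27 S phase genes were at least 2-fold lower, where 32.1% of all genes were, and the S phase median was -1.72 beside -0.77 for all genes. With median scaling the S phase median was -0.72 with none 2-fold lower, beside -0.06 for all genes. With globins removed it was -1.11 beside -0.34, and 17 of 27 were 2-fold lower, where 2.83% of all genes were. In R5 against R4, 30 histone genes were at least 2-fold higher, where 3.97% of all genes were. No S phase gene was, which is near the share of all genes, and the S phase median was 0.33 beside 0.27 for all genes.

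Histone chaperones, which carry histones to DNA, had 19 of 21 genes at least 2-fold lower in R5 than in R2, where 76.9% of all genes were, and a median of -2.16 beside -1.65. With median scaling 4 of 21 were, where 13.7% of all genes were, and the median was -0.61 beside -0.42. Anp32b had 480 RPKM (R2), 430 (R3), 194 (R4) and 240 (R5), Ssrp1 of the FACT complex had 168 RPKM (R2), 69.3 (R3), 22.5 (R4) and 28.8 (R5), and Nap1l4 had 91.7 RPKM (R2), 41.7 (R3), 15.5 (R4) and 20.7 (R5). All 3 were highest in R2. Asf1b, a carrier of H3 and H4, had the highest log2 ratio of R5 to R2 at -0.45, and Set the lowest at -2.99.

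Replacement histones, which are made outside S phase, mostly from polyadenylated messages of genes elsewhere in the genome, were mixed. Of 9 past the filter, 1 was at least 2-fold higher and 5 at least 2-fold lower in R5 than in R2, where 2.74% and 76.9% of all genes were, with a median of -1.11 beside -1.65. This direction turned with the scaling, to a median of 0.41 with median scaling and 0.08 with globins removed. H3f3a, which encodes H3.3, had 245 RPKM (R2), 639 (R3), 581 (R4) and 588 (R5). Its log2 ratio of R5 to R2, 1.26, was the highest. H2afx, which encodes H2A.X, had 198 RPKM (R2), 274 (R3), 164 (R4) and 272 (R5), and H2afz, which encodes H2A.Z, had 182 RPKM (R2), 127 (R3), 42.6 (R4) and 50.6 (R5). The lowest log2 ratio was that of H2afy, which encodes macroH2A1, at -3.03. H1f0, the replacement linker histone, was named after its values were seen and had 29.0 RPKM (R2), 15.8 (R3), 3.81 (R4) and 12.9 (R5). It was the sole replacement gene past the filter that was higher in R5 by 2-fold or more over R4.

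The ratio of R5 to R2 was compared between the kinds of annotated 3′ end as a description. The median log2 ratio was 0.99 in the 19 genes past the filter whose transcript runs on past the stem-loop and 0.79 in the 15 that end near it. It was 1.22 in the 16 without a site that stop near the stop codon, and 0.65 in the 5 others. Past 2-fold higher were 9 of 19, 7 of 15, 11 of 16 and 2 of 5 genes, where 2.74% of all genes were. Which 3′ end the sequenced messages had cannot be read from 1 value per gene.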

How the data were processed

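The authors deposited RPKM values, 1 per gene symbol and library, with 2 decimals. Per the labels' protocols, total RNA of freshly sorted cells was enriched for poly(A) and read on a Solexa instrument of Illumina. The genome build was mm9, per the submitters' processing notes. The aligner, the counter, the annotation, the length in the denominator and the treatment of reads that match several genes were not given in the sources used.

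The members and the gene lists were chosen with earlier results of these data known. Genes with at least 1 RPKM in a library were kept (9942), log2 ratios of RPKM + 1 were taken for 4 comparisons, and 2-fold was the limit for counts. Members with at least 10 RPKM in a library were given in all libraries, those of 1 to 10 RPKM by class with the highest ratio of each class, and those under 1 RPKM by name. From each list of companion genes, the 3 with the highest mean and those with the highest and the lowest R5 to R2 ratio were named. The lists were of histone mRNA synthesis and processing, polyadenylation, chaperones, S phase, replacement variants, germline histones and cell type markers.

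Whole reads were recovered from the step of the RPKM values, and a length was called determined when under 0.05 fits were likely by chance at shorter lengths. Poisson and binomial intervals (95%) are exact. The recovery was tested on simulated data. With 1 library per population no test across genes was made. Alternatives were a pseudocount of 0.1 or of 5 RPKM, a filter raised to 5 RPKM or dropped, scaling by the median of gene ratios over 2745 genes with at least 5 RPKM in every library, globin removal, leaving out members under 30 reads, R3 in place of R2 and, added after seeing the data, class sums without the gene of most reads. Exonic lengths and transcripts came from GENCODE and promoters from RefSeq, matched by symbol or synonym. Python 3.11.15, pandas 2.3.3, numpy 2.4.6, scipy 1.17.1 and matplotlib 3.10.9 were used.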

Additional observations from a re-analysis of the deposited data

How the results depend on the processing

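No paired analysis was possible because each population gave 1 library. No 2 members had identical values, so merging such members changed nothing and is not counted. Under the other alternatives 55 values stayed close to those reported, 30 moved and 2 reversed, the median of R4 against R3, -0.07 as deposited, under both scalings. With a pseudocount of 5 RPKM the median log2 ratio of R5 against R2 was 0.69 with 16 members at least 2-fold higher, that of R5 against R4 was 0.70 with 15 higher, 0 were 2-fold lower in R3 against R2, and 0 were higher and 2 lower in R4 against R3. With 0.1 RPKM 6 were higher and 5 lower in R3 against R2, 3 were higher in R4 against R3, and the median of R5 against R4 was 1.36. Median scaling gave medians of 2.32 with 53 higher for R5 against R2, 0.68 with 14 higher and 0 lower for R3 against R2, 0.67 with 17 higher and 1 lower for R4 against R3, and 0.84 for R5 against R4. Globin removal gave 2.07 with 51 higher, 0.67 with 14 higher and 0 lower, and 0.35 with 9 higher and 1 lower for the first 3 of these comparisons. When members under 30 reads were left out, 29 remained, of which 17 were higher in R5 than in R2, 17 higher in R5 than in R4, 0 lower in R3 than in R2 and 0 higher in R4 than in R3. The cause of these shifts was not tested, beyond the smaller number of genes in the last. Shares over all genes were not computed for the pseudocounts of 0.1 and 5 RPKM or for the read limit. Counts under those settings therefore describe the members alone. With the gene of most reads left out of each class sum, chosen after seeing the data, H1 reversed to 0.945 in R3 against R2 and 0.843 in R4 against R3. Depth limits single genes most, since 29 of 58 members never reached 30 reads.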
